A study of Mus musculus with 6 samples.

Results

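The genes described here encode the nuclear subunits of the mitochondrial respiratory chain and of the ATP synthase in the injured mouse kidney. They were taken by symbol, as genes whose names begin with Nduf, Sdh, Uqcr, Cox4 to Cox8 or Atp5, which gave 92 of the 21678 genes that the array annotation names. A gene was tested when a probe set reached a log2 signal of 5 on at least 3 of the 6 arrays, and 91 of the 92 were among the 18238 genes tested. Cox7b2, a testis form of a cytochrome c oxidase subunit, read between 3.85 and 4.08 on all arrays and was not tested. The 91 genes comprised 80 subunits, 6 assembly factors and 5 genes that share a prefix or a sequence relation only. The subunits divided into 36 of complex I, 4 of complex II, 8 of complex III, 17 of complex IV and 15 of complex V.

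Male BALB/c mice aged 10 to 12 weeks had 1 kidney clamped for 26 min and reperfused, and the other kidney removed. At 24 h they received 100 mg per kg of m4PTB, methyl 4-(phenylthio)butanoate, known as an inhibitor of histone deacetylases, or the vehicle, which was 20% 2-(hydroxypropyl)-b-cyclodextrin in water. Kidneys were taken 12 h later, at day 1.5, and those of similar injury were chosen by serum creatinine, BUN and Kim1 (Havcr1) message, so both groups represent kidneys picked on injury. Total RNA of 3 m4PTB and 3 vehicle samples was hybridised to 1 array each, and that number limits the precision.

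The inner mitochondrial membrane holds the respiratory chain. Complex I takes electrons from NADH and complex II from succinate, complex III passes them on to cytochrome c, and complex IV hands them to oxygen. Protons pumped on the way return through complex V, the ATP synthase. The kidney tubule, above all the proximal tubule and the thick ascending limb, is rich in mitochondria because sodium reabsorption consumes ATP, and ischemia with reperfusion damages this machinery.

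Most of these genes read slightly lower in m4PTB kidneys than in vehicle kidneys, and none passed the test. The log2 difference of m4PTB minus vehicle was below 0 for 63 of 91 genes, with a median of -0.04, where 45.5% of all genes tested lay below 0 and their median was 0.01. After limma's test with Benjamini-Hochberg adjustment over all 18238 genes, 0 of the 91 were called, as were 0 of all genes tested (background 0%), and the smallest adjusted p among the 91 was 0.659. The arrays of the groups did not overlap for 15 genes that were lower in m4PTB (background 5.21%) and for 0 genes that were higher (background 9.38%). At an unadjusted p under 0.05, 6 genes were lower (background 2.56%) and 0 were higher (background 4.67%). The 6 were Cox6a2, Cox8c, Ndufb11, Cox4i1, Atp5g2 and Atp5k. With each array's median subtracted, 83 of the 91 differences were below 0 (background 65.5%), and 13 genes were lower at an unadjusted p under 0.05 (background 5.83%). The count of 6 was 1 without vehicle replicate 3, 1 without m4PTB replicate 2 and 2 without m4PTB replicate 3. Over all 18238 genes tested, the count of 466 was then 363, 303 and 383, in that order.

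**Figure D1:**
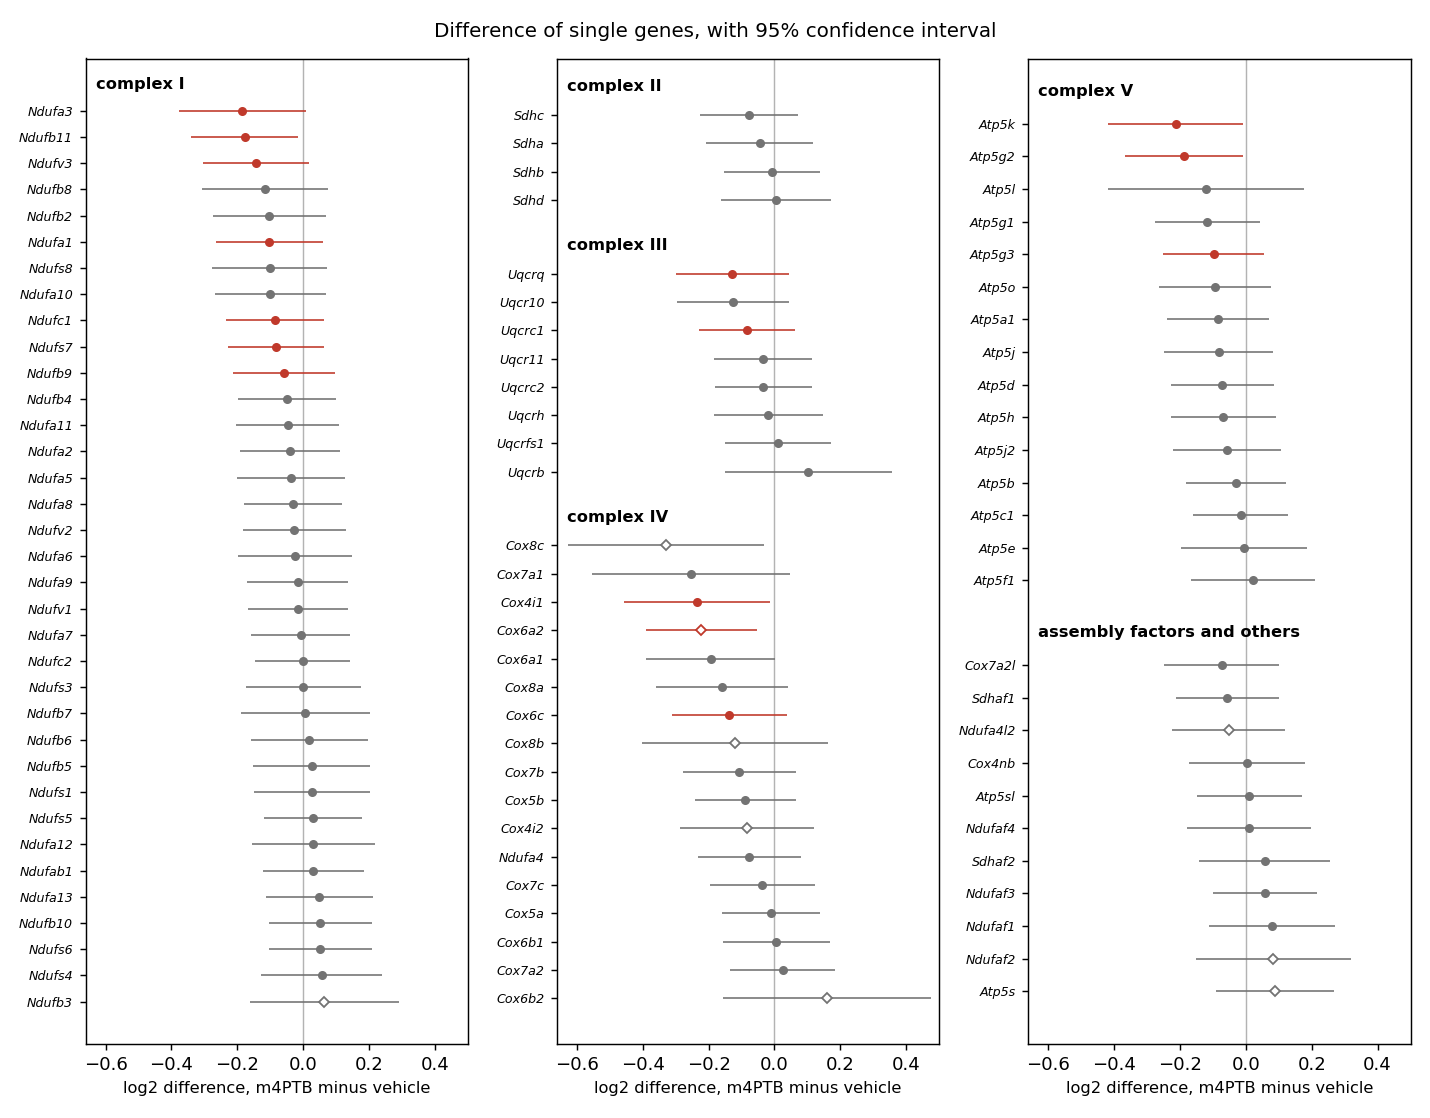
Log2 difference of m4PTB minus vehicle for 90 of the 91 genes, each with its 95% confidence interval from limma, grouped by complex. Red marks the 15 genes whose arrays did not overlap between the groups, and open diamonds mark the 9 genes that were not above the negative controls on all arrays. Most points lie left of 0 in each of complexes I to V, with the largest shares in complexes IV and V, and most intervals include 0.

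The differences were small on any scale. None of the 91 genes differed by 1.5-fold, and 67 differed by less than 0.1 in log2. The standard errors ran between 0.06 and 0.14 with a median of 0.07, and the 95% confidence intervals typically reached 0.16 to each side. All intervals lay between -0.63 and 0.47, so these arrays allow differences of a size that they cannot call. A log2 signal of a gene stands for the RNA of a whole kidney, in which fewer cells of a type and less RNA per cell cannot be told apart.

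As a check on signal, 82 of the 91 genes exceeded, on every array, the 90th percentile of that array's negative controls. Among those 82 genes 58 were lower in m4PTB, while of the 8083 genes tested under a filter at that percentile 34.0% were lower and the median was 0.04. Below it on all arrays were Cox6a2, Cox8c, Cox6b2, Cox8b, Cox4i2, Ndufaf2, Ndufa4l2 and Atp5s, and Ndufb3 was above it on 1 array. Vehicle replicate 3 stood apart from the other arrays, with a mean correlation of 0.987 with them against 0.993 to 0.994 for the rest, and its negative controls had a median of 5.56 against 5.88 to 5.95. Without it, 63 of the 91 genes were still lower and their median was -0.04.

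The median difference was closest to 0 in complexes I, II and III and further below 0 in complexes IV and V. It was -0.03 over the 36 subunits of complex I, of which 23 were lower, -0.03 over the 4 of complex II, of which 3 were lower, and -0.03 over the 8 of complex III, of which 6 were lower. It was -0.11 over the 17 of complex IV, of which 14 were lower, and -0.08 over the 15 of complex V, of which 14 were lower. All 5 medians were below 0 under every alternative normalization, filter and omission of an array that was run. Leaving out 1 array gave -0.04 (without m4PTB replicate 3) to -0.02 (without m4PTB replicate 1) in complex I and -0.05 (without vehicle replicate 2) to -0.008 (without m4PTB replicate 1) in complex II. In complex III it gave -0.05 (without m4PTB replicate 3 or vehicle replicate 2) to -0.02 (without vehicle replicate 3). The difference between complexes was not tested, because subunits of 1 array are no replicates.

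**Figure D2:**
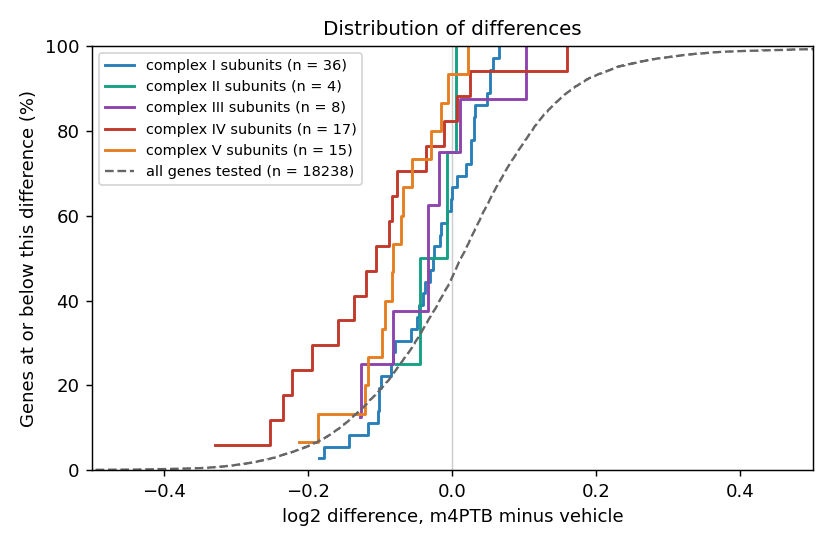
Cumulative share of genes, in percent, by log2 difference of m4PTB minus vehicle, for the subunits of each complex and for all 18238 genes tested (dashed). The curves of complexes IV and V lie left of the curve of all genes over most of their length, with medians of -0.11 and -0.08 against 0.01.

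The mean signal of a complex on each array showed how far this held from kidney to kidney. The complex V subunits averaged 11.36, 11.36 and 11.31 on the m4PTB arrays, against 11.41, 11.41 and 11.45 on the vehicle arrays. Those of complex IV averaged 9.94, 9.97 and 9.92 on the m4PTB arrays, against 10.03, 9.98 and 10.15 on the vehicle arrays. In both complexes every m4PTB array was below every vehicle array, and vehicle replicate 3 was the highest. For complex IV this rested on the 6 alternative isoforms, 5 of which were at the level of negative controls. The 11 common subunits overlapped, with m4PTB replicate 2 at 11.61 and vehicle replicate 2 at 11.60. In complex V the 5 subunits of the catalytic head overlapped, with m4PTB replicate 3 at 11.84 and vehicle replicate 2 at 11.82. The 10 subunits outside the head did not overlap. The means over all complex I subunits did not overlap, but the nearest arrays, m4PTB replicate 2 at 10.189 and vehicle replicate 2 at 10.194, were almost equal. Complexes II and III overlapped.

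**Figure D3:**
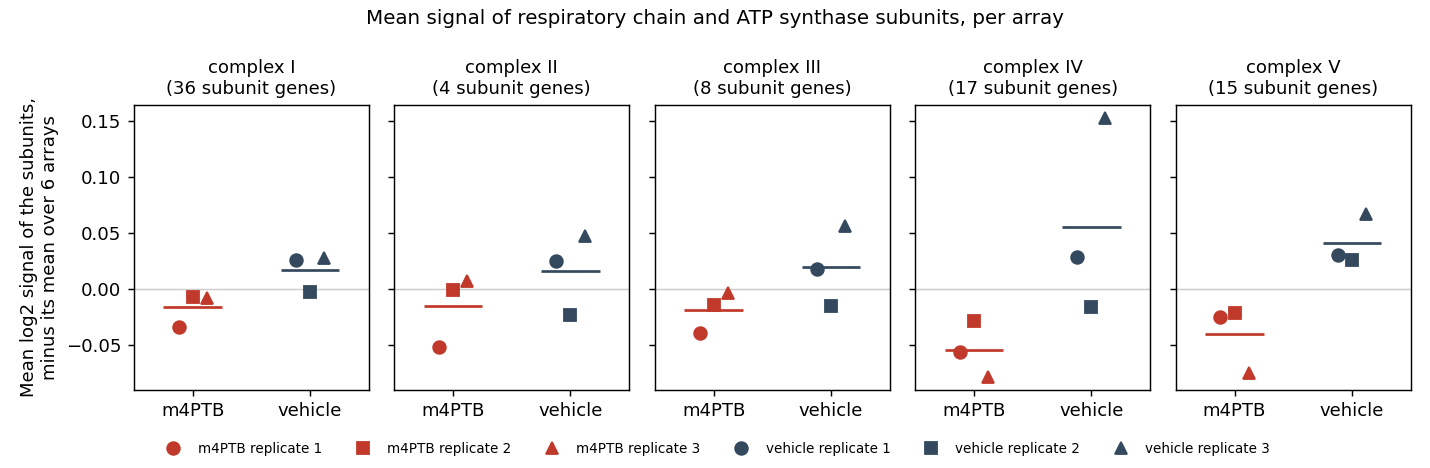
Mean log2 signal of the subunits of each complex on each array, as a difference from its mean over the 6 arrays; symbols are arrays and bars are group means. The m4PTB arrays lie below the vehicle arrays in complexes I, IV and V and overlap with them in complexes II and III. The complex IV means overlap too when its 6 alternative isoforms are left out (11.61 for m4PTB replicate 2, 11.60 for vehicle replicate 2). Means over the 7 core subunits of complex I alone and the 5 head subunits of complex V alone, not drawn, overlap as well.

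Complex I (NADH dehydrogenase) combines core subunits, which carry the flavin, the iron-sulfur clusters and the quinone site, with accessory subunits that hold the complex together. Among its 7 measured core and 29 accessory subunits the medians were alike, at -0.03 and -0.03. The largest core iron-sulfur subunit, Ndufs1, differed by 0.03, and Ndufv1, which binds NADH, by -0.02. In both the groups overlapped.

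The complex I genes furthest from 0 were accessory subunits. Ndufb11, a subunit of the membrane arm, read 11.29, 11.33 and 11.25 in m4PTB kidneys, against 11.48, 11.38 and 11.53 in vehicle kidneys. Every m4PTB array was below every vehicle array, and the difference was -0.18 (standard error 0.07, limma adjusted p = 0.679). A dimmer second probe set of Ndufb11 differed by -0.05. Ndufa3, another accessory subunit, read 10.39, 10.31 and 10.30 in m4PTB kidneys, against 10.49, 10.41 and 10.66 in vehicle kidneys, a difference of -0.19 (standard error 0.08, limma adjusted p = 0.685). Its groups were close at m4PTB replicate 1 and vehicle replicate 2, and vehicle replicate 3 was the highest.

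Ndufv3, an accessory subunit beside the NADH-binding part, read 9.26, 9.37 and 9.27 in m4PTB kidneys, against 9.43, 9.39 and 9.51 in vehicle kidneys, a difference of -0.14. Ndufa1, a small membrane subunit, differed by -0.10, with 8.53, 8.53 and 8.54 in m4PTB kidneys, against 8.63, 8.56 and 8.72 in vehicle kidneys. The groups of Ndufv3 and of Ndufa1 did not overlap. The remaining complex I genes without overlap, named after their values were seen, were Ndufc1 at -0.08, Ndufs7 at -0.08 and Ndufb9 at -0.06. A dimmer probe set of Ndufc1 differed by -0.23, also without overlap. Without vehicle replicate 3 Ndufa3 was at -0.11, Ndufa1 at -0.060 and Ndufb9 at -0.023. Ndufs7, a core subunit, carries the iron-sulfur cluster from which electrons reach ubiquinone.

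Complex II (succinate dehydrogenase) is the enzyme shared by the respiratory chain and the TCA cycle, and none of its 4 subunits differed by 0.1. Sdhb, its iron-sulfur subunit, read 11.26, 11.25 and 11.30 in m4PTB kidneys, against 11.29, 11.25 and 11.29 in vehicle kidneys. The arrays of the 2 groups were interleaved, and the difference was -0.01 with a 95% confidence interval of -0.15 to 0.14. Sdha, the flavoprotein, differed by -0.05 (interval -0.21 to 0.12). The membrane anchors Sdhc and Sdhd differed by -0.08 (interval -0.23 to 0.07) and by 0.005 (interval -0.16 to 0.17).

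In complex III (cytochrome bc1) the groups did not overlap for 2 of 8 subunits, both lower in m4PTB (background 5.21% lower and 9.38% higher). Uqcrc1, a core protein facing the matrix, read 11.38, 11.40 and 11.35 in m4PTB kidneys, against 11.48, 11.43 and 11.47 in vehicle kidneys, a difference of -0.08 (standard error 0.06, limma adjusted p = 0.724). Its partner Uqcrc2 differed by -0.03 and the Rieske iron-sulfur protein Uqcrfs1 by 0.01, both with overlap. Uqcrq, a small ubiquinone-binding subunit, read 10.88, 10.87 and 10.82 in m4PTB kidneys, against 10.94, 10.91 and 11.10 in vehicle kidneys, and vehicle replicate 3 stood above the other arrays. Its difference was -0.13, as was that of Uqcr10, another small subunit whose groups overlapped, and without vehicle replicate 3 that of Uqcrq was -0.072.

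Uqcrb, which also binds ubiquinone, had the highest difference of complex III. It read 11.38, 11.54 and 11.79 in m4PTB kidneys, against 11.54, 11.47 and 11.39 in vehicle kidneys. The m4PTB arrays spanned the vehicle arrays on both sides. Its difference of 0.10 had a standard error of 0.11, and without m4PTB replicate 3 it was -0.007. The 3 probe sets of Uqcrb gave 0.08 to 0.10, but they share 1 accession and may read the same or near-identical copies.

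Complex IV (cytochrome c oxidase) carried the largest differences among the 91 genes. Cox4i1, the common form of a subunit that takes part in the control of the enzyme by ATP, read 11.17, 11.21 and 10.91 in m4PTB kidneys, against 11.34, 11.25 and 11.41 in vehicle kidneys. The groups did not overlap, though m4PTB replicate 2 and vehicle replicate 2 lay close together and m4PTB replicate 3 was well below the other arrays. This difference of -0.24 (standard error 0.10, limma adjusted p = 0.683) corresponds to 0.849 of the vehicle signal. For Cox4i1 it was -0.14 without m4PTB replicate 3 and -0.15 with array weights.

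Cox6a1, the form of subunit VIa found in most tissues, read 11.24, 11.31 and 11.18 in m4PTB kidneys, against 11.45, 11.31 and 11.55 in vehicle kidneys. Vehicle replicate 2 fell within the m4PTB range, and the difference was -0.19 (standard error 0.08, limma adjusted p = 0.685). Cox6c, a small membrane subunit, read 12.42, 12.47 and 12.47 in m4PTB kidneys, against 12.61, 12.48 and 12.68 in vehicle kidneys, with m4PTB replicates 2 and 3 almost level with vehicle replicate 2. Its difference was -0.14, and that of Cox8a, the smallest subunit in its common form, was -0.16 with overlap. Without vehicle replicate 3 these were -0.091 for Cox6c and -0.087 for Cox8a, and with array weights -0.081 for Cox6c, -0.071 for Cox8a and -0.11 for Cox6a1. Other subunits were nearer 0, with Cox5b at -0.09, Ndufa4, once assigned to complex I and now to complex IV, at -0.08, Cox5a at -0.01, Cox6b1 at 0.01 and Cox7a2 at 0.02. Without vehicle replicate 3 Ndufa4 was at -0.040. The median over the 11 common subunits was -0.09.

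Complex IV also has forms encoded by separate genes in muscle, testis or lung. The 6 such genes measured had a median of -0.17, but 5 of them were above the negative controls on no array. Cox6a2, the form of subunit VIa in heart and skeletal muscle, read 7.27, 7.20 and 7.20 in m4PTB kidneys, against 7.43, 7.36 and 7.54 in vehicle kidneys. The groups did not overlap, with a difference of -0.22 (standard error 0.07, limma adjusted p = 0.659), all at a signal that negative controls reach. Cox8c, a testis form, read 6.09, 6.19 and 6.41 in m4PTB kidneys, against 6.35, 6.54 and 6.79 in vehicle kidneys, overlapping at the same low level. Its difference was -0.33 (standard error 0.13, limma adjusted p = 0.679), and without vehicle replicate 3 that of Cox8c was -0.21.

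Cox7a1, the muscle form of subunit VIIa, was the only one of the 6 with a signal above the negative controls. It read 8.46, 8.71 and 8.69 in m4PTB kidneys, against 8.69, 8.78 and 9.15 in vehicle kidneys. Vehicle replicate 1 lay within the m4PTB range and vehicle replicate 3 was the highest, and the difference was -0.25 (standard error 0.13), beside 0.02 for Cox7a2, its counterpart in other tissues. For Cox7a1 it was -0.12 without vehicle replicate 3 and -0.13 with array weights. Of the remaining dim forms, the muscle form Cox8b differed by -0.12, the lung form Cox4i2 by -0.08 and the testis form Cox6b2 by 0.16, all with overlap. Without vehicle replicate 3 Cox8b was at -0.030 and Cox4i2 at -0.0065, and without m4PTB replicate 1 Cox6b2 was at 0.051. Other omissions moved them away from 0, to -0.25 for Cox8b and -0.13 for Cox4i2 without vehicle replicate 2. Cox6b2 was at 0.30 without m4PTB replicate 3. The 4 skeletal muscle markers measured were above the negative controls on no array, and their median difference was -0.03. With arrays weighted by quality, where vehicle replicate 3 received a weight of 0.24, the complex IV median was -0.05.

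**Figure D4:**
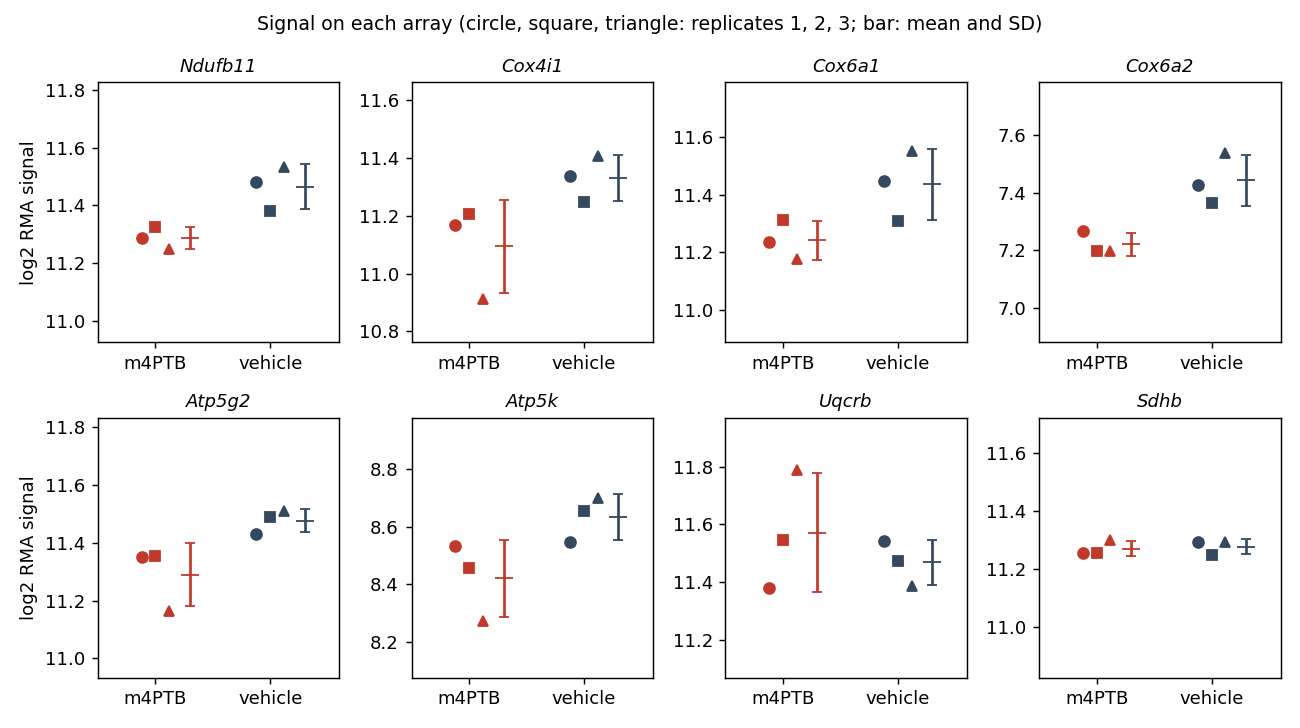
Log2 signal of 8 genes on each array, with the group mean and SD (n = 3 each); every panel spans the same height on the log2 axis but starts at its own level. The groups do not overlap for Ndufb11, Cox4i1, Cox6a2, Atp5g2 and Atp5k, overlap for Cox6a1 and Uqcrb, and coincide for Sdhb.

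Complex V (ATP synthase) couples the catalytic F1 head to a rotor and stalks in the membrane. The subunits outside the head had the lower median, -0.10 with 9 of 10 lower, beside -0.03 with 5 of 5 lower for the head. In the head, the alpha subunit Atp5a1 differed by -0.08, the catalytic beta subunit Atp5b by -0.03 and the gamma shaft Atp5c1 by -0.02, all with overlap.

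The ring that turns in the membrane is built of subunit c, whose identical mature protein is encoded by 3 genes, and all 3 were below 0. Atp5g2 read 11.35, 11.35 and 11.16 in m4PTB kidneys, against 11.43, 11.49 and 11.51 in vehicle kidneys, a difference of -0.19 (standard error 0.08, limma adjusted p = 0.685). Atp5g3 read 11.91, 11.97 and 11.96 in m4PTB kidneys, against 12.01, 12.01 and 12.11 in vehicle kidneys, a difference of -0.10 (standard error 0.07, limma adjusted p = 0.712). The groups overlapped for neither of them, and the differences were -0.12 for Atp5g2 without m4PTB replicate 3 and -0.065 for Atp5g3 without vehicle replicate 3. Atp5g1 differed by -0.12 and overlapped, since m4PTB replicate 2 reached the lowest vehicle array. The 3 probe sets of Atp5g2 gave -0.19 to -0.18 and share an accession.

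Subunits e and g bring ATP synthase together into dimers. Atp5k, which encodes subunit e, read 8.53, 8.46 and 8.27 in m4PTB kidneys, against 8.55, 8.65 and 8.70 in vehicle kidneys. The groups were separated by a narrow gap between m4PTB replicate 1 and vehicle replicate 1, and the difference was -0.21 (standard error 0.09, limma adjusted p = 0.685). For Atp5k it was -0.14 without m4PTB replicate 3. Atp5l, which encodes subunit g, read 10.78, 10.45 and 10.24 in m4PTB kidneys, against 10.58, 10.66 and 10.58 in vehicle kidneys. The m4PTB arrays lay on both sides of the vehicle arrays, and the difference of -0.12 was within their SD of 0.27. Its 6 probe sets gave -0.14 to -0.10. Atp5f1, the stator subunit b (Atp5pb in RefSeq), was the member of complex V above 0, at 0.02. The complex V median was -0.04 with array weights.

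Assembly factors do not form part of the finished complexes. Of the 6 that share the prefixes, 5 were higher in m4PTB, with a median of 0.06 and overlap in all 6. Ndufaf1, which helps to build the membrane arm of complex I, read 8.46, 8.40 and 8.59 in m4PTB kidneys, against 8.45, 8.46 and 8.30 in vehicle kidneys, a difference of 0.08. For Ndufaf1 it was 0.0064 with array weights, 0.029 without vehicle replicate 3, 0.025 without m4PTB replicate 3 and 0.12 without m4PTB replicate 2. Ndufaf2, another assembly factor of complex I, differed by 0.08 at a dim signal, and by 0.0014 to 0.14 with an array left out. The 5 genes that share a prefix or a sequence relation only had a median of 0.004. Of these, Cox4nb, Atp5s and Atp5sl are named Emc8, Dmac2l and Dmac2 in RefSeq and were between 0.00 and 0.09. The others were Ndufa4l2, a hypoxia-induced relative of Ndufa4, at -0.05, and Cox7a2l, a factor in supercomplex formation, whose probe sets disagreed, at -0.07 and 0.18.

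Probe sets of 1 gene were compared to see how far a value depends on the choice of the brightest. Of the 92 genes 22 had several probe sets, which agreed in sign for 17 genes and not for 5, namely Atp5f1, Cox7a2l, Ndufab1, Ndufb6 and Uqcr11. The median spread within a gene was 0.04 and the largest 0.25. Values of genes with several probe sets are uncertain, since these can read near-identical copies elsewhere.

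Many of these genes are known to share promoter elements for NRF1, for ETS factors such as GA-binding protein, for YY1 and for ERR receptors. RefSeq windows (build GRCm38.p6) of 250 bases before to 50 after the start of transcription were at hand for 75 of the 91 genes, 81 windows in all. Both strands were searched for GCGCA followed by any base and GCGC (NRF1), CCGGAAG (ETS), AAGATGGC (YY1) and AAGGTCA (ERR), none of which contains another. NRF1 letters stood in 19 member windows (23.5%) and in 4.60% of all 32851 windows. The shares were 23.5% and 8.86% for ETS, 14.8% and 2.75% for YY1, and 9.88% and 4.72% for ERR. With assembly factors, and the related Cox7a2l, counted with their complex, genes holding the NRF1 letters were 8 of 36 in complex I, 2 of 5 in complex II, 1 of 5 in complex III, 1 of 13 in complex IV and 6 of 14 in complex V. Such a match describes letters, not bound sites.

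Promoter stretches of 4 genes are shown, taken from the 4 genes of smallest p in each complex where 1 window was listed and the NRF1 letters stood before the start. They span up to 40 bases on each side of the match without passing the start of transcription, and run 5′ to 3′ on the minus strand, with the match nearest the start in capitals. The match begins 10 bases before the start in Sdha, 117 in Cox6a1, 50 in Atp5k and 42 in Atp5g2, at chr13:74350241-74350290, chr5:115349026-115349115, chr5:108434400-108434489 and chr15:102671048-102671129 in that order.
Sdha: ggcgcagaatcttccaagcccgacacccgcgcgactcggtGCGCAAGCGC
Cox6a1: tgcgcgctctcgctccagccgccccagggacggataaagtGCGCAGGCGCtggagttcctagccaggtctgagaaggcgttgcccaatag
Atp5k: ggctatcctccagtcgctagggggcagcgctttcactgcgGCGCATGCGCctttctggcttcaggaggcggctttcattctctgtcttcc
Atp5g2: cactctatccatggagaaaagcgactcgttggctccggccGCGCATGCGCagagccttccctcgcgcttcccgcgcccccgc
The sequences share these letters, while the differences of the genes were -0.05 for Sdha, -0.19 for Cox6a1, -0.21 for Atp5k and -0.19 for Atp5g2.

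Other mitochondrial gene lists give the setting. Of 9 measured subunits and electron carriers outside the prefixes, 5 were higher and 4 lower, with a median of 0.02; the mitochondrially encoded subunits were not analysed here. Higd2a, a factor in supercomplex assembly, read 10.81, 10.78 and 10.80 in m4PTB kidneys, against 11.01, 10.96 and 11.03 in vehicle kidneys. The groups were well apart relative to their spread, and the difference was -0.20 (standard error 0.06, limma adjusted p = 0.645). Atp5md, a small ATP synthase subunit, differed by -0.20 with overlap.

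Of 27 measured assembly factors outside the prefixes, 18 were higher and 9 lower, with a median of 0.02. Cox20, a chaperone of complex IV, differed by -0.22, Taco1, which activates translation of a mitochondrially encoded complex IV subunit, by 0.16, and Lrpprc, which binds mitochondrial messages, by 0.15. Cox20 differed by -0.15 without vehicle replicate 3 and by -0.091 as the mean over its probe sets, and Lrpprc by 0.097 without m4PTB replicate 3. Of 20 genes of mitochondrial biogenesis 14 were higher and 6 lower, with a median of 0.04. Gabpb1, a subunit of GA-binding protein, read 7.70, 7.71 and 7.73 in m4PTB kidneys, against 7.48, 7.53 and 7.13 in vehicle kidneys, a difference of 0.33 (standard error 0.11, limma adjusted p = 0.659), at a signal above the negative controls on 0 arrays. Vehicle replicate 3 was the lowest array, and without it the difference was 0.21. Nrf1, which encodes the factor searched for above and exceeded the negative controls on 1 array, differed by 0.18, or 0.079 without vehicle replicate 3. Tfb1m, a methyltransferase of mitochondrial ribosomal RNA, differed by 0.16, or 0.087 without that array.

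The 77 mitochondrial ribosomal protein genes divided evenly, 39 higher and 38 lower, with a median of 0.00. The groups did not overlap for 7 that were higher and 3 that were lower, shares close to the 9.38% and 5.21% of all genes. The 3 of smallest p, all proteins of the large subunit, were Mrpl21 at 0.39, Mrpl22 at 0.27 and Mrpl18 at 0.20. Mrpl21 exceeded the negative controls on 2 arrays, Mrpl22 on 0 and Mrpl18 on 6. Of 19 genes of the TCA cycle and pyruvate oxidation 7 were higher and 12 lower, with a median of -0.03. Idh3g, a subunit of NAD-dependent isocitrate dehydrogenase, differed by -0.14, Fh1 (fumarate hydratase) by -0.10 and Pdhx, a component of the pyruvate dehydrogenase complex, by 0.11. Fh1 was at -0.062 without m4PTB replicate 3 and Pdhx at 0.066 without vehicle replicate 1. No gene of these 5 lists was called by limma after adjustment.

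Markers of tubule cells lay mostly below 0, as the subunits of complexes IV and V did. Of 10 proximal tubule markers, all above the negative controls on every array, 7 were lower, and the list averaged 12.15 to 12.19 on the m4PTB arrays, against 12.25 to 12.31 on the vehicle arrays. Furthest below 0 among them were Slc22a8, an organic anion transporter, at -0.32 and Miox, which oxidises myo-inositol, at -0.24. The 3 that were higher, Lrp2, Cubn and Slc5a2, differed by 0.02, 0.03 and 0.03. All 4 markers of the thick ascending limb and all 4 of intercalated cells were lower, with medians of -0.10 and -0.11. The list means overlapped between the groups, with m4PTB arrays up to 11.35 and 9.32 and vehicle arrays from 11.34 and 9.30, in that order. All 5 markers of dividing cells were higher, averaging 8.76 to 9.24 on the m4PTB arrays, against 7.81 to 8.52 on the vehicle arrays. The 5 macrophage markers had a median of 0.18 and averaged 7.44 to 7.67 on the m4PTB arrays, against 7.16 to 7.58 on the vehicle arrays, with 3 of the 5 above the negative controls on no array. The 5 markers of tubular injury had a median of 0.25 and averaged 9.44 to 9.97 on the m4PTB arrays, against 9.04 to 9.66 on the vehicle arrays. In both lists the means overlapped between the groups, though all 5 markers of each list were higher. Furthest above 0 were Mrc1 at 0.62 in the macrophage list, and Lcn2 at 0.66 and Clu at 0.59 in the injury list. The groups did not overlap for 1 gene of each list (background 9.38%), Mrc1 and Clu. Mrc1 was above the negative controls on 0 arrays. Csf1r of the macrophage list and Havcr1 and Vcam1 of the injury list differed by 0.01 each. Havcr1 message was one of the measures by which the kidneys were chosen, so its difference is not independent of that choice. The part of these markers of cell types and injury in the differences of the respiratory chain genes was not tested.

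**Figure D5:**
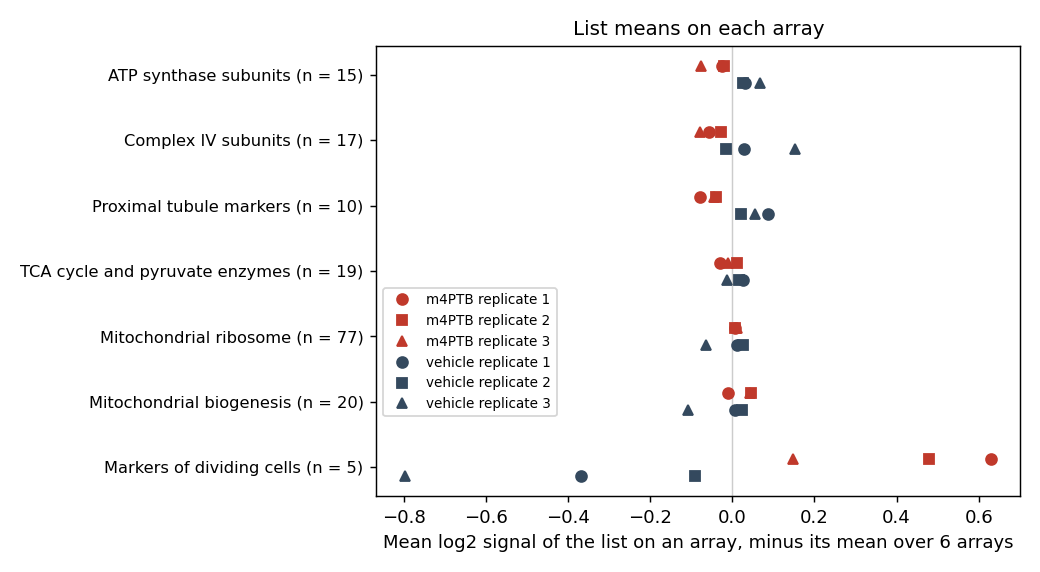
Mean log2 signal of gene lists on each array, as a difference from the list's mean over the 6 arrays. The m4PTB arrays lie below the vehicle arrays for ATP synthase, complex IV (only with its alternative isoforms included) and proximal tubule markers, above them for markers of dividing cells, and overlap for the TCA cycle, mitochondrial ribosome and biogenesis lists.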

How the data were processed

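Whole-kidney RNA of 6 samples was measured on Affymetrix arrays. The authors deposited log2 signals of probe sets, which came out of RMA as run in the Expression Console 1.1 of Affymetrix (per the submitters' processing notes). RMA normalizes by quantiles, which hides a shift that most genes share. Gene symbols came from the deposited full table, whose 6 signal columns match no sample's labels and were not used. Of 35556 probe sets, 25004 had 1 symbol, 2 several and 10550 none, and 22271 matched RefSeq's gene table (GRCm38.p6) by accession.

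The brightest passing probe set stood for each gene. Groups of 3 m4PTB and 3 vehicle samples came per the labels' titles, which number them as replicates without saying that each is a separate mouse, so p-values measure a spread that may be partly technical. The comparison was fitted with limma 3.58.1 in R 4.3.3 without covariates, with p-values adjusted by Benjamini-Hochberg over 18238 genes. The steps were tested on simulated data. Controls (6559 probe sets, of them 5222 negative controls) were left out.

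Genes named were the 4 of smallest p per complex, up to 5 per direction without overlap, the main subunits and isoform pairs, and up to 3 of smallest p per list. Not every gene this takes is reported here, though all enter the counts. Members, lists and tests were chosen with earlier results of these data known. Alternatives were the replicate number as a block, median subtraction, cyclic loess, other filters, the mean over probe sets, other variance models, array weights, subunits only and leaving out each array. Complex IV without its alternative isoforms was added after seeing the data.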

Additional observations from a re-analysis of the deposited data

How the results depend on the processing

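No member was called at an adjusted p under 0.05 under any alternative run. Of 91 members 63 were lower, 63 to 83 under the alternatives that kept all arrays and no fewer members, and 60 to 72 with an array left out. The filter at the negative controls left 58 of 82 lower, and subunits alone 60 of 80. The 6 lower at an unadjusted p under 0.05 became 3 with the replicate number as a block, 13 with each array's median subtracted, 10 with trend and robust variances, and 1 to 8 with an array left out. Over all genes tested, the 466 lower became 389, 1064 and 462 under these 3 settings, in that order. With an array left out they became 303 to 698. The 0 members higher became 0 to 1 with an array left out, where the 852 of all genes became 478 to 1109. Same-numbered samples did not deviate together (correlations of -0.13, -0.05 and -0.08), so the numbers were not taken as pairs.

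With medians subtracted, the median difference was -0.097 over all members, -0.083 in complex I, -0.084 in complex II, -0.091 in complex III, -0.16 in complex IV and -0.14 in complex V. The median over all genes tested was then -0.045, against 0.012 without the subtraction. With array weights the median difference was -0.0057 in complex II, -0.050 in complex IV and -0.043 in complex V. With an array left out it ran over -0.050 to -0.035 for all members, -0.043 to -0.016 in complex I, -0.051 to -0.0080 in complex II, -0.050 to -0.019 in complex III, -0.14 to -0.072 in complex IV and -0.10 to -0.063 in complex V. Without its alternative isoforms, a choice made after seeing the data, complex IV had a median of -0.09.

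Of 884 single values recomputed for 64 named genes over 14 alternatives, 32 changed sign and 0 were called. They were -0.039 for Atp5f1, 0.0052 for Ndufv1 and -0.013 for Ndufaf2 with array weights. With cyclic loess they were 0.014 for Atp5b, 0.0012 for Atp5c1, -0.00043 for Sdhd and -0.026 for Uqcrfs1. With medians subtracted they were -0.032 for Cox7a2, -0.051 for Cox6b1, -0.036 for Atp5f1, -0.031 for Ndufs1, -0.053 for Sdhd and -0.047 for Uqcrfs1. With the mean over probe sets they were 0.053 for Cox7a2l and -0.015 for Atp5f1. With an array left out, the differences whose sign turned ran over -0.014 to 0.048 for Cox7a2, -0.025 to 0.013 for Cox5a, -0.024 to 0.042 for Cox6b1, -0.26 to 0.0051 for Atp5l, -0.047 to 0.076 for Atp5f1, -0.017 to 0.080 for Ndufs1, -0.040 to 0.0052 for Ndufv1, -0.023 to 0.00015 for Sdhb, -0.031 to 0.039 for Sdhd, -0.0067 to 0.20 for Uqcrb and -0.028 to 0.036 for Uqcrfs1. Subtracting each array's median moves the differences of all genes by the same amount. The cause of the other changes of sign was not tested. For the 9 members not above the negative controls on all arrays, background limits what a difference can show.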
